A study of Drosophila melanogaster with 8 samples.

Results

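This report describes 39 genes of Drosophila melanogaster that are known for their roles in making sperm, as measured in ovaries with an excess of cells that resemble the stem cells of the germline (GSC-like cells). The genes were chosen by name, as subunits of the testis transcription machinery, regulators of spermatocytes and components of the sperm, from the 14094 genes with a deposited abundance. Of the 39, 36 were matched by the symbol listed and 3 through an older symbol, rye as Taf12L, Mst35Ba as ProtA and Mst35Bb as ProtB. The name rye is also an older symbol of an acetylcholine receptor subunit gene, and Taf12L was taken because the list is of testis genes, so all values given for rye are those of Taf12L. Polyadenylated RNA was sequenced from 4 samples with overexpression of Stonewall (Stwl), labelled StwlEY and here called StwlOE, and from 4 samples without it, here called Control. Stwl binds DNA and acts in female germ cells. All samples were ovaries of females 4 to 5 days old, with about 35 ovaries pooled for each. The genetic tools that enriched the GSC-like cells, the driver of Stwl and the genetic background of the groups are not stated in the labels, so an effect of Stwl and a difference between strains cannot be told apart. Since no label says that replicates are separate crosses, p-values refer to the spread among these samples, which may be technical.

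In the testis, germ cells enter a long spermatocyte stage in which they transcribe the genes for meiosis and for building sperm. This programme depends on testis-specific homologues of the general transcription factor TFIID subunits (the tTAFs) and on the testis meiotic arrest complex (tMAC), a relative of the dREAM/MuvB complex. Many of the products are translated later, in spermatids, where mitochondria fuse, the tail elongates and histones are exchanged for protamines. A female germline normally does not run this programme, and its silencing is one facet of germline sexual identity.

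In the check of the treatment, stwl was at 45.5, 55.5, 62.6 and 67.8 TPM in StwlOE replicates 1 to 4, against 25.1, 21.9, 23.6 and 23.5 TPM in Control replicates 1 to 4. TPM is an abundance per transcript length, scaled to the same sum in each library, so levels of different genes can be compared. Between 8618 and 8941 genes reached 1 TPM in a library. Depth is unknown, because TPM does not keep it. Germline markers were present in every library, with vas (an RNA helicase of germ cells) at 341 ± 54.1 TPM in StwlOE and 402 ± 11.9 TPM in Control (SD, n = 4 each). The library StwlOE replicate 1 stood apart, with osk (a maternal mRNA of the growing oocyte) at 25.9 TPM, against 0.340 to 0.900 TPM in the other StwlOE libraries and 1.19 to 1.52 TPM in Control.

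Most of the spermatogenesis genes were near the lower end of the scale in both groups. Of the 39 genes, 26 had a mean below 1 TPM in StwlOE and also in Control, which is 66.7% of them, against 35.9% of all 14094 genes. The genes dj, Mst84Db, Mst84Dd and S-Lap4 were listed at 0 in all 8 libraries. In the other 22 of the 26, the highest single value was 1.35 TPM, for ocn in StwlOE replicate 4. The remaining 13 genes were mia, nht, rye, aly, topi, tomb, achi, vis, Mst87F, bol, Rbp4, S-Lap2 and gdl, and they held 96.5% to 98.1% of the summed abundance of all 39 in each library. That sum was 85.6, 96.5, 114.0 and 112.9 TPM in StwlOE replicates 1 to 4 and 107, 105, 112 and 113 TPM in Control replicates 1 to 4. Replicates 1 and 2 of StwlOE lay below all Control libraries, and replicate 3 lay above them.

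**Figure D1:**
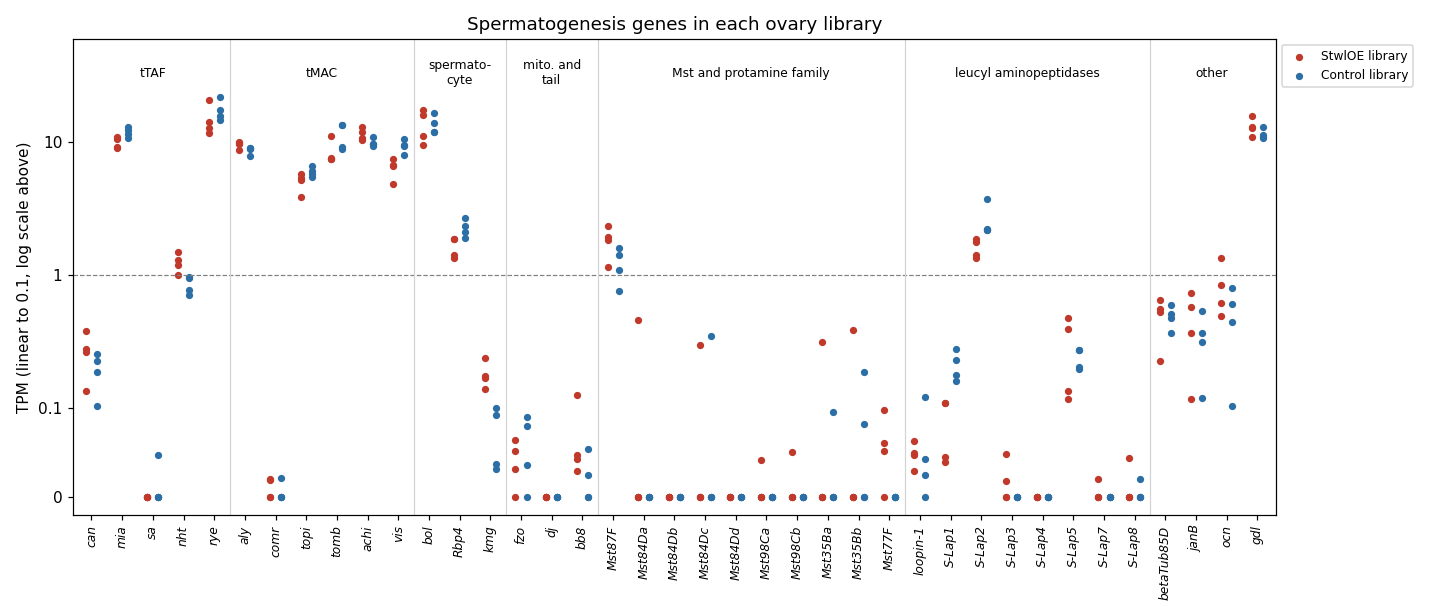
Abundance of the 39 spermatogenesis genes in TPM (vertical axis, linear up to 0.1 and logarithmic above), grouped by role, with 1 point per library (StwlOE in red, Control in blue) and a dashed line at 1 TPM. The 13 genes with a group mean of at least 1 TPM are 8 of the 11 tTAF and tMAC subunits, bol, Rbp4, Mst87F, S-Lap2 and gdl.

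The comparison asked whether more Stwl changes these genes in GSC-like ovaries. None of the 13 testable genes was called in limma at an adjusted p of 0.05 (0 higher and 0 lower), while 8.38% of all 8898 tested genes were called, 6.2% higher and 2.18% lower. In the authors' deposited table vis, mia and S-Lap2 had an adjusted p below 0.05 and were lower in StwlOE, 3 of the 20 spermatogenesis genes with such a value. Of all 10631 genes with such a value there, 18.9% passed, 10.5% higher and 8.4% lower. The limma p before adjustment was 0.00472 for vis, 0.0346 for mia and 0.0255 for S-Lap2. The share of all tested genes with an unadjusted p this low was not computed. The authors' deposited table marked none of the 23 genes it lists as Up or Down, a mark given to 4.81% of its genes. The log2 fold changes of the 13 genes on the log2(TPM + 1) scale ran from -0.49 for vis to 0.34 for Mst87F, 8 below 0 and 5 above, with a median of -0.21 beside 0.01 for all tested genes. Their standard errors ran from 0.086 to 0.189. This scale understates changes of genes near 1 TPM. For 4 of the 13 the 2 groups had no overlap, vis, Rbp4 and S-Lap2 lower and nht higher, which is 30.8%, beside 16.0% of all tested genes, 10.3% higher and 5.64% lower. Of these, nht averaged 0.854 TPM in Control and passed the minimum abundance through its StwlOE values, so its place in this count depends on that filter.

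**Figure D2:**
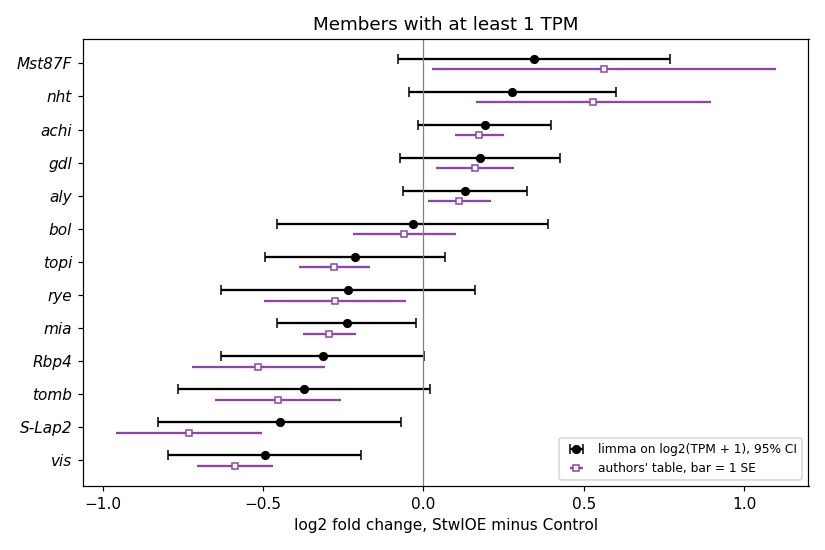
Log2 fold change, StwlOE minus Control, of the 13 testable genes, whose mean over all 8 libraries reached 1 TPM. Black points are the limma estimates on log2(TPM + 1) with 95% confidence intervals, and purple squares are the values of the authors' deposited table with bars of 1 standard error; the intervals of vis, S-Lap2 and mia lie below 0, before adjustment over all genes.

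Markers of several cell types also differed in RNA level between the groups, and their part in the values of the spermatogenesis genes was not tested. Of 8 germline markers, 1 was lower in limma (bgcn), with a median log2 fold change of -0.24. With median-of-ratios scaling limma called 5 lower, and with quantile normalization 3. The authors' deposited table gave 5 of them an adjusted p below 0.05, all lower (vas, aub, piwi, AGO3 and bgcn). Of all genes with such a value there, 8.4% were lower. The summed abundance of the 8 markers was 934, 1089, 1229 and 1321 TPM in StwlOE replicates 1 to 4, against 1260 to 1374 TPM in Control. Of 10 muscle sheath markers all 10 were higher in limma (median 0.70), with sums of 3984 to 4887 TPM in StwlOE and 2385 to 3237 TPM in Control, and 9 or 10 were higher whichever library was left out. Of 8 hemocyte markers 5 were higher (median 0.89), and of 7 tested somatic gonad markers none was called (median 0.21), with sums of 362 to 481 TPM and 458 to 541 TPM in StwlOE and of 362 to 421 TPM and 436 to 490 TPM in Control. The authors' deposited table gave 2 somatic gonad markers, Fas3 and ptc, an adjusted p below 0.05, both higher. Of 13 yolk and eggshell genes of follicle cells, 7 were higher in limma (median 2.86), all of them chorion genes (Cp15, Cp16, Cp18, Cp19, Cp36, Cp38 and Cp7Fa). The authors' deposited table gave 5 of these an adjusted p below 0.05, but not Cp16 (0.0841) or Cp19 (0.178). For 4 of the 13 the groups had no overlap, all higher, beside 10.3% of all tested genes. The vitelline membrane genes Vm26Aa, Vm32E and Vm34Ca and the yolk protein genes Yp1, Yp2 and Yp3 were not called, and the summed level of the 13 overlapped, at 78271 to 118838 TPM in StwlOE and 82165 to 117945 TPM in Control. The limma count of 7 dropped to 2 without StwlOE replicate 3, StwlOE replicate 4, Control replicate 1, Control replicate 2 or Control replicate 4. It was 4 without a variance trend and 3 without a filter on low values. In bulk ovaries, fewer germ cells and less of an RNA per germ cell cannot be told apart. When every library was scaled to its summed germline markers, a setting chosen after the data were seen, the median of all tested genes shifted to 0.24. The 13 spermatogenesis genes then had a median of -0.01, with 5 called higher and 1 lower while 56.2% of all tested genes were called.

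Among the tTAFs, 3 of 5 were above 1 TPM in a group. The gene mia, the testis homologue of Taf6 (FBgn0014342, chromosome 3R, 5548115 to 5551168, minus strand, build BDGP6), was at 9.23, 9.06, 10.6 and 10.97 TPM in StwlOE replicates 1 to 4 and at 11.5, 10.7, 13.2 and 12.4 TPM in Control replicates 1 to 4. The groups overlapped, with StwlOE replicate 4 just above Control replicate 2. The limma log2 fold change was -0.24 (standard error 0.0966, adjusted p 0.189). The authors' deposited table gave -0.29 (adjusted p 0.00353). Relative to summed germline markers, mia stood at 8.79 ± 0.747 per 1000 TPM of markers in StwlOE and 8.89 ± 0.527 in Control (SD, n = 4 each). The general subunit gene Taf6 was at 43.2 ± 4.89 TPM in StwlOE and 43.3 ± 1.20 TPM in Control (SD, n = 4 each), so mia was at 22.3% to 24.4% of the Taf6 level in StwlOE libraries and at 25.2% to 30.2% in Control libraries. This ratio is given with no test. Of the other tTAF ratios to a general counterpart, that of nht to Taf4 was higher in StwlOE without overlap, and those of rye, can and sa overlapped.

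The gene nht, the testis homologue of Taf4 (chromosome 2L, 15317954 to 15318901, minus strand), was at 1.49, 1.01, 1.30 and 1.20 TPM in StwlOE and at 0.953, 0.769, 0.715 and 0.979 TPM in Control. Every StwlOE library lay above every Control library, and nht passed the minimum abundance through its StwlOE values. It was not called in limma (log2 fold change 0.28, standard error 0.143, adjusted p 0.318), nor in the authors' deposited table (adjusted p 0.363), where its mean normalized count was 19.1. The gene rye, the testis homologue of Taf12 (chromosome 2L, 4700835 to 4701485, minus strand), spread widely within both groups, at 11.7, 14.3, 20.7 and 12.9 TPM in StwlOE and 15.8, 21.98, 14.8 and 17.4 TPM in Control (log2 fold change -0.23, standard error 0.176, adjusted p 0.517 in limma). It lies on the other strand within the gene dcma, which averaged 0.272 TPM in StwlOE and 0.0468 TPM in Control. Of the other tTAFs, can (homologue of Taf5) stayed at or below 0.383 TPM in every StwlOE library and 0.258 TPM in every Control library. The gene sa (homologue of Taf8) was listed at 0 in every StwlOE library and at 0.0478 TPM in 1 Control library. The general counterparts of these 2 genes were well above that, with Taf5 at 27.1 ± 3.16 and Taf8 at 59.4 ± 7.94 TPM in StwlOE, against 29.0 ± 1.02 and 50.9 ± 3.27 TPM in Control (SD, n = 4 each). The ovaries thus held RNA of mia and rye at several TPM, with can and sa near 0.

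Of the tMAC genes, 5 of 6 were above 1 TPM, all but comr, which did not exceed 0.0206 TPM in StwlOE or 0.0213 TPM in Control. The gene aly, whose product gives spermatocytes access to their meiotic programme and is related to Mip130, was at 8.74, 10.1, 9.89 and 9.71 TPM in StwlOE and 9.01, 8.99, 8.93 and 7.84 TPM in Control. The 3 other StwlOE libraries lay above all Control libraries, and replicate 1 lay among them (log2 fold change 0.13, standard error 0.0856, adjusted p 0.448 in limma). The zinc finger gene topi was at 3.85, 5.40, 5.22 and 5.75 TPM in StwlOE and 6.07, 5.50, 5.73 and 6.59 TPM in Control (log2 fold change -0.21, standard error 0.124, adjusted p 0.387 in limma). The gene tomb, whose product has the cysteine-rich DNA-binding motif of Mip120, was at 7.63, 7.54, 7.52 and 11.2 TPM in StwlOE and 9.27, 8.92, 13.6 and 13.5 TPM in Control. Replicate 4 of StwlOE was above 2 of the Control libraries, and the other 3 were below all of them (log2 fold change -0.37, standard error 0.174, adjusted p 0.262 in limma). The end of tomb (chromosome 2L, 5535861 to 5536758, minus strand) overlaps Cap-D3 on the other strand, which was at 14.96 TPM in StwlOE and 14.4 TPM in Control, and the use of strand in counting is not given.

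The genes achi and vis are neighbouring duplicate genes for homeodomain proteins (chromosome 2R, minus strand, achi at 12511534 to 12515062 and vis at 12507896 to 12510615) whose products join tMAC, and their coding sequences are near-identical, so the assignment of reads between them is uncertain. The abundance of vis was 4.82, 6.60, 6.72 and 7.47 TPM in StwlOE and 9.38, 7.98, 10.5 and 9.63 TPM in Control. Every StwlOE library was below every Control library, with a log2 fold change of -0.49 (standard error 0.134) and a limma adjusted p of 0.0534, just short of the threshold. A 2-sided exact permutation test gave p = 0.0286, its minimum with 4 samples a group. Any gene whose groups do not overlap reaches this minimum, as nht, Rbp4 and S-Lap2 did, so this p restates the lack of overlap. The authors' deposited table gave vis a log2 fold change of -0.59 (adjusted p 1.42e-05). Under 18 other settings, counting that table, vis passed the threshold in 8, with adjusted p from 1.42e-05 to 0.147. The abundance of achi was 10.5, 10.9, 11.9 and 13.1 TPM in StwlOE and 9.79, 9.46, 10.996 and 9.78 TPM in Control, with overlapping groups (log2 fold change 0.19, standard error 0.0923, adjusted p 0.279 in limma).

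The sum of achi and vis, formed after their values were seen, was 17.99 ± 2.19 TPM in StwlOE and 19.4 ± 1.67 TPM in Control (SD, n = 4 each). Fitted as 1 feature, the pair had a log2 fold change of -0.11 with a 95% confidence interval of -0.33 to 0.12 (limma adjusted p 0.630). The share of this sum assigned to vis was 31.5%, 37.8%, 36.0% and 36.4% in StwlOE and 48.9%, 45.7%, 48.9% and 49.6% in Control. This share was formed after both genes had been seen, so its lack of overlap restates their values and is given with no test. Relative to summed germline markers, vis remained below Control in all 4 StwlOE libraries, at 5.16 to 6.06 per 1000 TPM of markers in StwlOE and 6.33 to 7.66 in Control, and achi was above, at 9.71 to 11.2 in StwlOE and 7.14 to 8.004 in Control. On this scale gdl, aly, nht and S-Lap2 also had no overlap. The share over all genes was not computed, so this lack of overlap cannot be read as particular to these genes. The same scaling moved the median of all tested genes to 0.24, with 4843 called higher and 154 lower in limma.

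**Figure D3:**
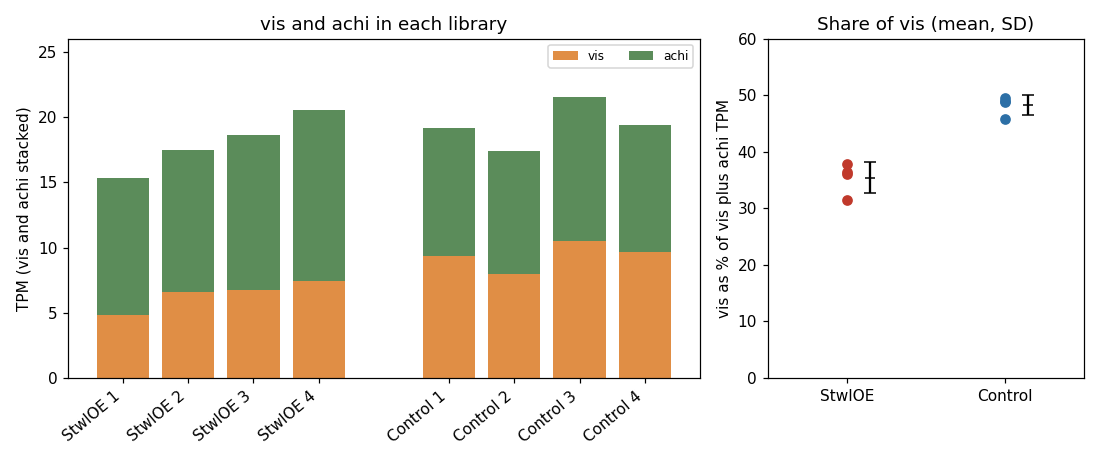
Left, abundance of vis (orange) and achi (green) in TPM, stacked, in each of the 4 StwlOE and 4 Control libraries. Right, vis as a percentage of vis plus achi, with 1 point per library and the mean ± SD beside them; StwlOE libraries lie between 31.5% and 37.8% and Control libraries between 45.7% and 49.6%.

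Of the regulators of spermatocytes, bol encodes an RNA-binding protein of the DAZ family that is needed for male meiotic divisions (chromosome 3L, 9097629 to 9134405, minus strand). It was at 9.51, 11.3, 16.0 and 17.5 TPM in StwlOE and 16.5, 11.98, 11.996 and 14.01 TPM in Control. The StwlOE libraries fell on both sides of the Control range, and the log2 fold change was -0.03 with a 95% confidence interval of -0.45 to 0.39. Rbp4, an RNA-binding protein gene of spermatocytes (chromosome 3R, 13654556 to 13656394, minus strand), was at 1.35, 1.42, 1.89 and 1.88 TPM in StwlOE and 2.10, 1.92, 2.37 and 2.70 TPM in Control. The groups did not overlap, with StwlOE replicate 3 close to Control replicate 2 (log2 fold change -0.31, standard error 0.141, adjusted p 0.241 in limma, and adjusted p 0.0661 in the authors' deposited table). The zinc finger gene kmg, whose product keeps spermatocytes from using promoters of other tissues, was too low to be tested. It was at 0.141, 0.239, 0.169 and 0.176 TPM in StwlOE and 0.0929, 0.0320, 0.0368 and 0.101 TPM in Control, without overlap, and rested on a mean normalized count of 6.69 in the authors' deposited table, where its adjusted p was 0.107.

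Genes of the later steps were mostly listed at or near 0. Among the 10 Mst and protamine genes, which encode sperm tail proteins (Mst84D, Mst87F and Mst98C) and sperm chromatin proteins (Mst35B and Mst77F), Mst87F alone had a mean of at least 1 TPM. It was at 1.86, 1.95, 1.15 and 2.34 TPM in StwlOE and 1.42, 0.762, 1.60 and 1.099 TPM in Control, with overlapping groups and a mean normalized count of 9.07 in the authors' deposited table (log2 fold change 0.34, standard error 0.189, adjusted p 0.349 in limma). The protamine genes Mst35Ba and Mst35Bb, which are close copies of each other, were at 0.315 and 0.387 TPM in StwlOE replicate 3 and at 0 in the other StwlOE libraries. In Control, Mst35Ba had a value above 0 only in replicate 3, at 0.0963 TPM, and Mst35Bb was at 0.0825 and 0.189 TPM in replicates 2 and 3. Mst77F was at 0.0982, 0.0515 and 0.0605 TPM in StwlOE replicates 1, 3 and 4, and was listed at 0 in StwlOE replicate 2 and in all Control libraries. It lies within Pka-R1 on the other strand, which was at 48.9 TPM in StwlOE and 48.9 TPM in Control, and values this low may not be its own. Of the genes of spermatid mitochondria and tails, fzo (a mitofusin) did not exceed 0.0645 TPM in StwlOE or 0.0907 TPM in Control, while its widely used counterpart Marf was at 62.1 ± 7.73 TPM in StwlOE and 56.3 ± 1.51 TPM in Control (SD, n = 4 each). The gene fzo lies within cnc on the same strand, which was at 66.2 TPM in StwlOE and 73.9 TPM in Control. The glutamate dehydrogenase gene bb8 reached 0.125 TPM in StwlOE and 0.0540 TPM in Control.

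The leucyl aminopeptidases (loopin-1 and the S-Lap genes) are abundant proteins of mature sperm. Of 8, S-Lap2 alone was above 1 TPM (chromosome 3L, 8619888 to 8622091, plus strand), at 1.35, 1.42, 1.79 and 1.87 TPM in StwlOE and 2.21, 2.22, 2.19 and 3.75 TPM in Control. All StwlOE libraries were below all Control libraries, and Control replicate 4 was far above the other 3. The limma log2 fold change was -0.45 (standard error 0.168, adjusted p 0.157), and that of the authors' deposited table was -0.73 (adjusted p 0.0106). Without Control replicate 4 the limma value was -0.31. Its upstream neighbour S-Lap1 (8617235 to 8619474, plus strand) was also without overlap, at 0.0392 to 0.110 TPM in StwlOE and 0.160 to 0.279 TPM in Control, but was too low to be tested and had a mean normalized count of 6.34 and an adjusted p of 0.103 in the authors' deposited table. The 3' end of S-Lap2 overlaps GAPsec on the other strand, which was at 35.1 TPM in StwlOE and 34.3 TPM in Control. Genes of the family resemble each other, so their reads may be shared. The other 6 reached at most 0.478 TPM, for S-Lap5 in StwlOE replicate 1.

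Among the remaining genes, gdl has transcripts in the gonads of both sexes (chromosome 3L, 15509445 to 15511047, plus strand) and overlaps Z600 and gdl-ORF39 on its own strand. It was at 11.04, 12.9, 15.8 and 13.1 TPM in StwlOE and 10.97, 11.3, 12.9 and 10.8 TPM in Control, with overlapping groups (log2 fold change 0.18, standard error 0.111, adjusted p 0.425 in limma). The testis tubulin gene betaTub85D was at 0.491 ± 0.184 TPM in StwlOE and 0.488 ± 0.0951 TPM in Control (SD, n = 4 each), while betaTub56D, a tubulin gene used in most tissues, was at 2404 ± 126 TPM in StwlOE and 2353 ± 49.1 TPM in Control. The neighbouring sperm protein genes janB and ocn reached 0.737 and 1.35 TPM in StwlOE and 0.540 and 0.797 TPM in Control. The gene janA, which overlaps the start of janB on the same strand and is used in both sexes, was at 198 ± 10.9 TPM in StwlOE and 190 ± 6.61 TPM in Control (SD, n = 4 each).

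The authors' deposited table also marks genes with a Stwl peak no more than 1 kb from the gene body, and genes that other studies found upregulated, without giving the conditions of either. A peak was marked for 15 of the 23 listed spermatogenesis genes (65.2%), beside 73.7% of all 11397 genes of that table. It was marked for 10 of the 13 genes above 1 TPM, the exceptions being nht, aly and topi. The genes vis, mia and S-Lap2 each had the mark, as did most genes of that table. Upregulation in another study was marked for 3 of the 23 (13.04%), rye in both studies and aly and bol in 1 each, beside 21.2% of all genes of that table.

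Other testis genes gave the same picture of low levels, with a few changes. Of 35 genes with roles or names from testis work, 25 were below 1 TPM in both groups, against 35.9% of all genes. Of 9 tested, 2 were higher and 1 was lower in limma, beside 6.2% higher and 2.18% lower of all tested genes, and the median log2 fold change was 0.07. In the authors' deposited table, adjusted p was below 0.05 for 5 of the 21 genes of this list that it holds. Of these, Cyt-c-d, wuc and mil were higher and tbrd-1 and eIF4E3 lower. The share was 18.9% of all genes with an adjusted p there, a value that Mst89B, soti, p-cup and gskt of the 21 lack. The limma adjusted p was 0.194 for mil and 0.0951 for eIF4E3. Cyt-c-d, the cytochrome c used in spermatid individualization, was at 3.36, 4.77, 6.09 and 5.72 TPM in StwlOE and 2.48, 1.33, 1.52 and 1.97 TPM in Control, without overlap (log2 fold change 1.08, standard error 0.19, adjusted p 0.00843 in limma). The gene wuc, a lin-52 paralogue that acts with aly in the testis, was at 2.86, 2.87, 3.87 and 2.54 TPM in StwlOE and 1.66, 1.47, 0.605 and 1.45 TPM in Control, without overlap (log2 fold change 0.83, standard error 0.19, adjusted p 0.0272 in limma). It lost its call without StwlOE replicate 2, StwlOE replicate 3, Control replicate 2 or Control replicate 4, with adjusted p of 0.0721, 0.0857, 0.0521 and 0.0602 in limma, and with quantile normalization, with 0.0783. The testis bromodomain gene tbrd-1 fell to 1.94 ± 0.159 TPM in StwlOE, against 3.13 ± 0.265 TPM in Control (SD, n = 4 each). The limma log2 fold change was -0.49 (adjusted p 0.029). It lost its call without StwlOE replicate 2, StwlOE replicate 3, Control replicate 1, Control replicate 3 or Control replicate 4, with adjusted p of 0.0902, 0.0901, 0.0765, 0.0882 and 0.0955 in limma.

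Among partners and counterparts, none of 11 general counterparts of the spermatogenesis genes and none of 9 dREAM and shared tMAC subunits was called in limma (medians 0.03 and -0.02), beside 8.38% of all tested genes. In the authors' deposited table, 3 of the counterparts (Taf5, Taf8 and grsm) and 1 of the subunits (Caf1-55) had an adjusted p below 0.05. The share was 18.9% of all genes with an adjusted p there. Of 14 genes that repress testis genes or set germline sex, 1 was called in limma, beside 6.2% higher and 2.18% lower of all tested genes. The called gene was Phf7, which encodes a histone reader that promotes male germline fate. It was at 58.9, 67.5, 69.1 and 73.3 TPM in StwlOE and 48.0, 45.6, 49.9 and 47.6 TPM in Control, without overlap. The limma log2 fold change of Phf7 was 0.48 (standard error 0.0725, adjusted p 0.00427). The authors' deposited table did not mark Phf7 as Up or Down. TPM was given per gene, so transcripts of Phf7 were not told apart. In the authors' deposited table, adjusted p was below 0.05 for 6 of these 14 genes, with Phf7 higher and Mi-2, Su(var)3-3, HDAC1, Sxl and chinmo lower. Limma called none of those 5. Of all genes with an adjusted p in that table, 10.5% were higher and 8.4% lower.

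**Figure D4:**
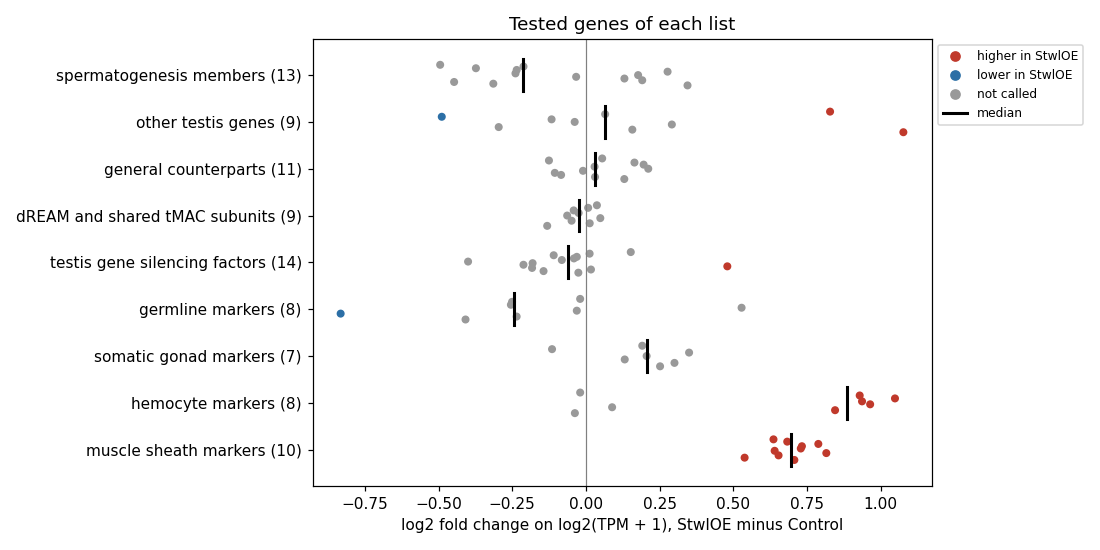
Log2 fold changes on the log2(TPM + 1) scale, StwlOE minus Control, of the tested genes of each list but the yolk and eggshell one (number in brackets), with genes called in limma in red (higher in StwlOE) or blue (lower) and a black bar at the list's median. The 13 spermatogenesis genes lie between -0.49 and 0.34 with none called, and the 10 muscle sheath markers are all called higher.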

How the data were processed

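The authors deposited TPM values per gene for the 8 libraries; the headers name a log2 scale, but each column sums to 1000000, so the values were used as linear. The submitters' processing notes name Salmon 1.10.1, DESeq2 1.37.4 and BDGP 6. The authors also deposited a comparison table with a mean normalized count (signal) and a log2 fold change per gene, a test score and p-values. Depth is unknown.

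Here, the 8898 genes whose mean over the libraries reached 1 TPM were transformed to log2(TPM + 1) and fitted in limma 3.58.1 (R 4.3.3) using the group as its term and a variance trend, with Benjamini-Hochberg adjustment over all of them and a threshold of 0.05. The fit was tested on simulated data. Exact permutation tests were 2-sided. Positions came from Ensembl release 115, and older symbols from a RefSeq table of Release 6. The genes and lists were chosen with earlier results of these data known. Named with values are genes with a group mean of at least 1 TPM or called, and called genes and counterparts of the other lists, among which genes called only by the authors, the markers vas, osk and bgcn, and kmg, S-Lap1 and the other genes below 1 TPM were chosen after their values were seen. Figures used matplotlib 3.10.9.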

Additional observations from a re-analysis of the deposited data

Results flagged for a closer look

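In 26 groups of 4 libraries (13 genes, StwlOE and Control), 3 single libraries lay far from the others by Dixon's ratio of gap to range, where chance gives about 1 in 20 groups. The gene tomb was at 11.2 TPM in StwlOE replicate 4, above the other 3 StwlOE libraries at 7.52 to 7.63 TPM. The gene aly was at 7.84 TPM in Control replicate 4, below the others at 8.93 to 9.01 TPM. S-Lap2 was at 3.75 TPM in Control replicate 4, above the others at 2.19 to 2.22 TPM.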

How the results depend on the processing

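For the 13 genes, 209 of 241 values under other settings kept direction and side of the threshold, 24 passed it and 8 changed sign. The number called lower was 2 with median-of-ratios scaling, 3 with quantile normalization, 1 without a variance trend, 3 in the authors' deposited test and 0 to 1 when a library was left out; with library weights it was 3 lower and 4 higher, and scaled to germline markers 1 lower and 5 higher. The gene called lower in the fits without StwlOE replicate 1 (adjusted p 0.0442 in limma) and without StwlOE replicate 4 (adjusted p 0.0463) was vis, whose adjusted p ran from 1.42e-05 to 0.147 over all settings. Signs changed for 4 uncalled genes: with library weights the log2 fold changes of rye, bol and Mst87F were 0.21, 0.24 and -0.015, scaled to germline markers bol was at 0.19, with libraries left out bol ran from -0.16 to 0.11, and achi with vis summed was at -0.11. Over all tested genes, 552 were higher and 194 lower (74.0% higher), against 806 and 626 (56.3%) with median-of-ratios scaling, 663 and 715 (48.1%) with quantile normalization, 2293 and 804 with library weights, 1113 and 893 in the authors' deposited test, 4843 and 154 (96.9%) scaled to germline markers, and 336 to 988 and 99 to 248 with a library left out. The causes were not tested. The labels do not say whether same-numbered samples were prepared together. Same-numbered libraries correlated at 0.128, -0.0174, -0.134 and 0.144 in their deviations, and differently numbered ones at -0.246 to 0.271. These values cannot settle whether the samples were paired. With the replicate block, none of the 13 was called, all calls were 576 higher and 202 lower, and wuc and tbrd-1 had adjusted p of 0.0719 and 0.0649 in limma.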
